A study of Mus musculus with 5 samples.

Results

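Transcripts of 10 genes known as feedback regulators or targets of MAP kinase signaling, most of them inhibitors of the path to ERK, were followed in bone marrow–derived macrophages (BMDMs): the dual-specificity phosphatases *Dusp1*, *Dusp2*, *Dusp4*, *Dusp5*, *Dusp6*, and *Dusp16*, the Sprouty gene *Spry2*, the Spred genes *Spred1* and *Spred2*, and *Phlda1*. The genes were taken from a list of symbols matched to Entrez Gene identifiers, and all 10 were found among the 17058 genes in the data and among the 12576 that passed a filter on low counts. RNA-Seq was done on 5 libraries of Balb/c BMDMs, made after coculture for 48 hours with 4T1 cells that were either WT (2 libraries) or *Adam17*-/- (3 libraries, named ADAM17 knock-out 2.8 in the labels). 4T1 cells derive from a mammary carcinoma of the mouse, and in the study a porous membrane held the cancer cells apart, so that the macrophages of both groups carried an intact *Adam17* and received the soluble factors of the cancer cells. The macrophages had been grown out of bone marrow with M-CSF, and by the study's methods the mice were young adults. The WT cells were the nonedited parental line, and knock-out lines in the study were grown from single sorted cells after CRISPR/Cas9 editing. All 3 *Adam17*-/- libraries carry the same knock-out designation, so that the loss of *Adam17* and anything else peculiar to these edited cells cannot be told apart. The comparison asks how macrophage transcripts differ when the cancer cells cannot shed ligands, such as those of the EGF receptor, through ADAM17.

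Growth factor receptors such as CSF1R and EGFR switch on Ras, which drives a chain of kinases (RAF, MEK, and ERK), and active ERK induces the transcripts of several of its own inhibitors. The dual-specificity phosphatases remove the activating phosphates from ERK, p38, or JNK, while Sprouty and Spred proteins act at the membrane between the receptor and RAF. Since these transcripts turn over quickly and follow ERK output, they are often used to read the activity of the pathway. In macrophages, CSF1R is the main source of sustained ERK signaling, and Toll-like receptors also induce several of the phosphatases.

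The libraries held 14658694 to 20788373 counts, and 3 counts corresponded to 0.157 to 0.197 CPM (counts scaled to a common library size with TMM factors). The lowest count of any member in any library was 10, and the counts of all 10 members were whole numbers in every library. Macrophage markers were high in all libraries. *Lyz2*, the lysozyme gene of myeloid cells, was the most abundant of the list per length, and *Csf1r* had 5356 ± 366 CPM (SD, n = 2) in WT and 4374 ± 320 CPM (SD, n = 3) in *Adam17*-/- cocultures. The marker lists moved with the groups. In these lists, higher and lower mean that a marker passed the adjusted test described in the next paragraph. Of all genes tested, 16.8% passed as lower and 14.9% as higher. Of 9 macrophage markers 7 were lower in *Adam17*-/- cocultures by this test. All 9 lay lower in every *Adam17*-/- library, as did 29.7% of all genes tested. Their summed level was 28735 to 29447 CPM in WT and 18368 to 20308 CPM in *Adam17*-/- libraries. Of 11 neutrophil and granulocyte precursor markers 8 were higher, with summed levels of 1307 to 1351 and 2137 to 2408 CPM. The largest part of this sum was *Mmp8*, at 913 and 1027 CPM in WT and 1003 to 1176 CPM in *Adam17*-/- libraries. It did not pass (log2 fold change 0.14, edgeR adjusted p = 0.318). Of 8 megakaryocyte markers 7 were higher (67.5 to 71.3 against 110 to 175 CPM), of 6 mature dendritic cell markers tested 4 were higher (18.2 to 29.8 against 46.7 to 63.5 CPM), and of 4 eosinophil and mast cell markers tested 2 were higher (2.92 to 4.66 against 5.58 to 12.5 CPM). Epithelial markers, listed to look for RNA of 4T1 cells, summed to 11.5 to 13.3 and 11.97 to 14.3 CPM. Nearly all of it was *Cdh1*, whose source was not tested, while *Epcam* had 0 or 1 count in each library. Lymphocyte markers summed to 1.89 to 4.40 and 3.01 to 6.32 CPM. In bulk samples, fewer cells of a type and less RNA per cell cannot be told apart.

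Of the 10 genes, 7 were lower when the cocultured 4T1 cells were *Adam17*-/-. In order of fitted size these were *Dusp4*, *Dusp5*, *Phlda1*, *Dusp6*, *Spry2*, *Spred2*, and *Dusp1*. *Spred1*, *Dusp16*, and *Dusp2* did not pass the test. A gene passed when edgeR's quasi-likelihood test, adjusted by the Benjamini-Hochberg method over all 12576 genes, gave 0.05 or less. Of all these genes 16.8% were lower and 14.9% higher. The same 7 members did not overlap between the groups, their *Adam17*-/- values all being the lower ones, a pattern seen in 29.7% of all genes tested. The median log2 fold change was -0.67 over the 10 members and 0.01 over all genes tested. The members had been chosen with earlier results of these data known. With the added limit of an absolute log2 fold change of 1, 3 members remained (*Dusp4*, *Dusp5*, and *Phlda1*), against 0.867% of all genes that were lower by this rule and 4.22% that passed it in either direction. The 3 became 2 with library size only or without WT replicate 1, and 1 and 0 in the FPKM fits with pseudocounts of 0.1 and 1. Members higher in *Adam17*-/- cocultures numbered 0 with edgeR and 0 with DESeq2, also at an unadjusted p under 0.05.

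**Figure D1:**
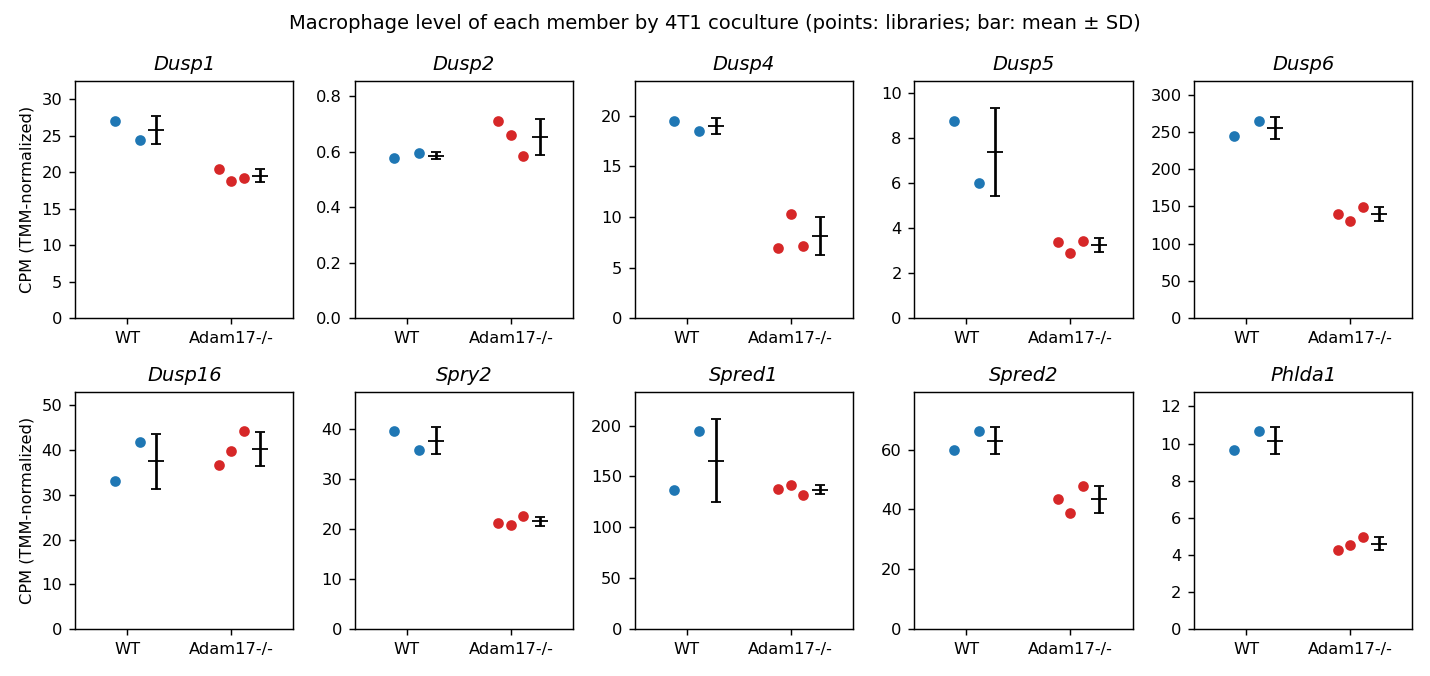
TMM-normalized CPM (vertical axes, from 0) of each of the 10 members in macrophages cocultured with WT (blue, n = 2) or *Adam17*-/- 4T1 cells (red, n = 3). Points are libraries and black bars are means ± SD. In 7 panels all red points lie under both blue points, and the groups overlap in those of *Dusp2*, *Dusp16*, and *Spred1*.

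*Dusp6* (Entrez Gene 67603, chromosome 10, 99263231 to 99267489 of GRCm38) encodes the cytoplasmic phosphatase that is selective for ERK and is the classic feedback transcript of the pathway. It had 245 and 265 CPM in WT replicates 1 and 2, and 141, 130, and 149 CPM in *Adam17*-/- replicates 1 to 3. All *Adam17*-/- libraries thus lay far under the lower WT library. Its mean was 255 ± 14.3 CPM (SD, n = 2) against 140 ± 9.19 CPM (SD, n = 3), which is 45.2% lower. The log2 fold change was -0.87 with a standard error of 0.0864 (adjusted p = 0.000381). *Dusp6* was the most abundant member per length. In FPKM, which is adjusted for transcript length, it had 81.9 and 92.9 in WT and 53.6, 49.2, and 56.1 in *Adam17*-/- libraries. This was 45.8% and 46.1% of the FPKM summed over all 10 members in the WT libraries and 38.9% to 41.1% in the *Adam17*-/- libraries. The summed FPKM itself was 179 and 201 in WT and 126 to 136 in *Adam17*-/- libraries, so that the groups were apart in the total as well.

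The inducible phosphatases of the nucleus, encoded by *Dusp4*, *Dusp5*, *Dusp1*, and *Dusp2*, act on MAP kinases that have entered it. *Dusp4* (319520, chromosome 8, 34807610 to 34819894) had the largest log2 fold change of the 10 members as fitted here, although *Dusp5* or *Phlda1* was larger with the replicate block and without WT replicate 1, WT replicate 2, *Adam17*-/- replicate 1, or *Adam17*-/- replicate 3. It had 19.5 and 18.5 CPM in WT libraries and 6.90, 10.3, and 7.10 CPM in *Adam17*-/- libraries. The WT libraries were close to each other, and *Adam17*-/- replicate 2 was the highest of its group but still under both. The mean was 57.4% lower, or -1.24 ± 0.166 (standard error) as a log2 fold change (adjusted p = 0.00103). *Dusp5* (240672, chromosome 19, 53529145 to 53541809), whose product is selective for ERK, had 8.79 and 6.01 CPM in WT and 3.39, 2.89, and 3.44 CPM in *Adam17*-/- libraries. Here the WT replicates differed from each other by more than the *Adam17*-/- replicates did. On the log2 scale the difference was -1.18 ± 0.201 (standard error, adjusted p = 0.00289). It was -0.89 when WT replicate 1 was dropped, and the test was still passed. The transcript listed for *Dusp5* is 1155 bases long, the shortest among the members, and its FPKM rests on that length.

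The upstream sequence of *Dusp5* is shown because it holds adjoining binding motifs of SRF, a factor that works with ERK-activated partners such as ELK proteins. It is taken from the RefSeq promoter table of GRCm38.p6, which had entries for 8 of the 10 members (*Dusp4* and *Phlda1* had none). The 250 bases before the start site were searched on both strands for 5 motifs: the CArG box of SRF, the cyclic AMP response element TGACGTCA, its core TGACG (which also matches inside the full element), the AP-1 site TGANTCA, and the ETS site CCGGAAG. Capitals mark the matches. The sequence of *Dusp5* lies at chr19:53528895-53529144 on the plus strand, and 64.0% of it is G or C.
Dusp5: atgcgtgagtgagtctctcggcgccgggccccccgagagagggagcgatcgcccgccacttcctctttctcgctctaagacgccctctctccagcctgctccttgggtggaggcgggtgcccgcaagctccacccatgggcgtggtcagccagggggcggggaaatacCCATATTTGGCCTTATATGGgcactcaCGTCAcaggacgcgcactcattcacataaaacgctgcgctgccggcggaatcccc
The first run of capitals is a pair of CArG boxes end to end, at 82 to 73 and 72 to 63 bases before the start, and the second is the core TGACG read on the other strand, at 55 to 51. Of all 32851 promoters in the table, 1.47% held a CArG box in this window, and *Dusp5* was the 1 of 8 member promoters that did. *Srf* itself was lower, at 73.8 ± 12.7 CPM (SD, n = 2) in WT and 50.0 ± 2.41 CPM (SD, n = 3) in *Adam17*-/- cocultures (log2 fold change -0.56, standard error 0.111, adjusted p = 0.00557). Binding of SRF was not measured, and a link between *Srf* and the *Dusp5* difference was not tested.

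*Dusp1* (19252, chromosome 17, 26505591 to 26508472) encodes a phosphatase of p38, JNK, and ERK that is induced early by stress, Toll-like receptors, and glucocorticoids. It had 27.1 and 24.4 CPM in WT and 20.5, 18.7, and 19.2 CPM in *Adam17*-/- libraries. The groups did not overlap, but the difference was the smallest of the 7, at -0.40 ± 0.102 on the log2 scale (standard error, adjusted p = 0.0166). This call was the least stable, since it was lost with library size only (adjusted p = 0.0798), in both FPKM fits, with the replicate number as a block (adjusted p = 0.0875), and with any *Adam17*-/- replicate left out (adjusted p = 0.0560 to 0.0766). The upstream sequence of *Dusp1* is shown for comparison, at chr17:26508473-26508722 on the minus strand, with the same marking of matches.
Dusp1: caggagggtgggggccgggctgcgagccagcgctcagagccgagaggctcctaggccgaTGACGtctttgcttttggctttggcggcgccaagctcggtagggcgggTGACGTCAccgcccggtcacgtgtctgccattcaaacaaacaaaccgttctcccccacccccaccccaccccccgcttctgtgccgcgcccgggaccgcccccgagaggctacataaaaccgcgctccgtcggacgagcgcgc
It holds a full cyclic AMP response element at 143 to 136 bases before the start, a motif found in 1.55% of all promoters, and a further TGACG at 191 to 187, a core found in 17.8%. No CArG box, AP-1 site, or ETS site was matched there. The same window of *Dusp6*, at chr10:99262981-99263230 on the plus strand, held none of the 5 motifs and is printed as the upstream sequence of the most abundant member.
Dusp6: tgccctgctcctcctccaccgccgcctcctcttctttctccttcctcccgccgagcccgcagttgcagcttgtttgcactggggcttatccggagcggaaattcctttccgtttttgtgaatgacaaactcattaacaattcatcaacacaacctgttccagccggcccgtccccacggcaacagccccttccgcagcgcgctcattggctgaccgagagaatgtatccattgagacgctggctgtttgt
These letters say only what stands in the window, and distal elements were not searched. Among the other entries, *Dusp16* (at 70 to 66 bases, with an entry for a start inside the annotated gene) and *Spred2* (at 51 to 47 bases) each held a single TGACG core, and *Dusp2*, *Spred1*, and *Spry2* held none of the 5 motifs. The members that passed and those that did not therefore both included promoters with and without a match.

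*Dusp2* (13537, chromosome 2, 127336159 to 127338377) encodes a nuclear phosphatase best known from activated lymphocytes and macrophages. It was barely expressed, with 11 counts in each WT library and 13, 10, and 11 in those of *Adam17*-/- cocultures. These correspond to 0.576 and 0.595 CPM against 0.711, 0.658, and 0.582 CPM, and the groups overlapped. The log2 fold change was 0.15 with a wide 95% interval of -0.71 to 1.01 (adjusted p = 0.790), which spans both directions. *Dusp16* (70686, chromosome 6, 134715468 to 134807063) encodes a phosphatase that prefers JNK and p38 to ERK. It had 33.2 and 41.9 CPM in WT and 36.7, 39.8, and 44.2 CPM in *Adam17*-/- libraries. The WT libraries spanned most of the range of the other group, and the log2 fold change of 0.10 had a 95% interval of -0.17 to 0.38 (adjusted p = 0.559). Nearly all of its counts were on the transcript NM_130447. A shorter transcript, NM_001048054, was listed in *Adam17*-/- replicate 3 alone, with 16.4 estimated counts or 1.97% of the gene's counts there.

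*Spry2* (24064, chromosome 14, 105891947 to 105896819) encodes Sprouty2, an inhibitor at the membrane that blocks the step from receptor to Ras and RAF. It had 39.5 and 35.7 CPM in WT and 21.2, 20.8, and 22.5 CPM in *Adam17*-/- libraries. The *Adam17*-/- libraries were tightly grouped, and the WT libraries were well over them. The mean was 42.8% lower, a difference of -0.81 ± 0.0962 on the log2 scale (standard error, adjusted p = 0.000652). The number of *Spry2* counts per *Dusp6* count was 0.161 and 0.134 in WT and 0.151, 0.159, and 0.151 in *Adam17*-/- libraries, so that the groups overlapped in the ratio of these genes.

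The Spred proteins bind neurofibromin, the Ras inactivator encoded by *Nf1*, and bring it to the membrane. *Spred2* (114716, chromosome 11, 19924442 to 20024026) had 59.8 and 66.1 CPM in WT and 43.3, 38.7, and 47.9 CPM in *Adam17*-/- libraries. The groups did not overlap, and the mean was 31.2% lower (log2 fold change -0.54, standard error 0.106, adjusted p = 0.00547). *Spred1* (114715, chromosome 2, 117121071 to 117182279) had 136 and 194 CPM in WT replicates 1 and 2, against 138, 142, and 132 CPM in *Adam17*-/- libraries. WT replicate 1 lay inside the range of the *Adam17*-/- libraries, and WT replicate 2 lay far over it. The log2 fold change was -0.27 with a 95% interval of -0.56 to 0.02 (adjusted p = 0.141). The value rested on which WT library was used: it was -0.51 (adjusted p = 0.000305) without WT replicate 1 and 0.0034 (adjusted p = 0.974) without WT replicate 2. In these fits a lone WT library is assumed to vary like the *Adam17*-/- libraries. Between 99.4% and 99.7% of the *Spred1* counts of a library were on the transcript NM_033524. *Nf1* did not pass the test (120 and 132 CPM in WT, 141, 135, and 150 CPM in *Adam17*-/- libraries, adjusted p = 0.166).

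*Phlda1* (21664, chromosome 10, 111506286 to 111508649) encodes a protein with a pleckstrin homology–like domain and is known as a transcript induced through ERK. It had 9.63 and 10.7 CPM in WT and 4.27, 4.54, and 4.98 CPM in *Adam17*-/- libraries. Both groups were narrow and lay well apart. The mean was 54.7% lower, a difference of -1.14 ± 0.146 on the log2 scale (standard error, adjusted p = 0.000866).

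By level per length in the WT libraries, the order was *Dusp6* (mean 87.4 FPKM), *Spred1* (25.2), *Spred2* (21.1), *Spry2* (17.3), *Dusp1* (12.8), *Dusp4* (7.56), *Dusp16* (7.01), *Dusp5* (6.37), *Phlda1* (5.06), and *Dusp2* (0.355). Neighbors whose WT libraries overlapped were *Spred1* and *Spred2*, *Dusp4* and *Dusp16*, *Dusp16* and *Dusp5*, and *Dusp5* and *Phlda1*. The order was not the same in *Adam17*-/- cocultures. There *Dusp16*, at 7.61, 8.17, and 9.11 FPKM, lay over *Dusp4* (3.06, 4.51, and 3.11 FPKM) in every library, while *Spry2* and *Dusp1* overlapped.

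**Figure D2:**
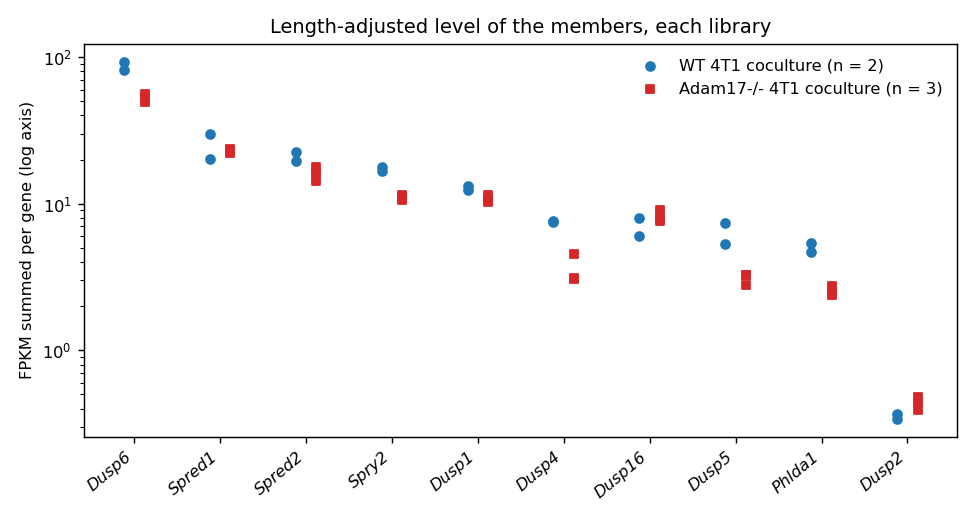
FPKM summed per gene (vertical log axis) for the 10 members, ordered by their mean in WT cocultures, with each WT library as a blue circle (n = 2) and each *Adam17*-/- library as a red square (n = 3). *Dusp6* is highest in all 5 libraries and *Dusp2* lowest, at 0.34 to 0.48 FPKM.

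Ratios between members do not depend on how libraries are scaled, and of the 5 given here 3 did not overlap between the groups. *Dusp6* had 7.39 and 6.34 counts per count of *Dusp16* in WT and 3.83, 3.28, and 3.36 in *Adam17*-/- libraries. Per count of *Spred1* it had 1.80 and 1.37 in WT and 1.02, 0.921, and 1.13 in *Adam17*-/- libraries. Neither of these overlapped between the groups. The ratio of *Dusp4* to *Dusp1* counts was 0.721 and 0.758 in WT and 0.337, 0.547, and 0.369 in *Adam17*-/- libraries. *Spred2* had 0.438 and 0.340 counts per count of *Spred1* in WT and 0.315, 0.273, and 0.363 in *Adam17*-/- libraries, which overlapped, as did the ratio of *Spry2* to *Dusp6*. These ratios were chosen after the values were seen and were not tested. An exact permutation test of 2 against 3 libraries cannot give a p under 0.1.

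Since macrophage markers were lower as well, with a median log2 fold change of -0.64 against -0.67 for the members, each member was also set against the summed CPM of the 9 macrophage markers, a scale chosen after the values were seen. Per 1000 CPM of these markers, 5 members lay lower in every *Adam17*-/- library: *Dusp4* (mean 35.3% lower), *Dusp5* (33.4% lower), *Phlda1* (31.5% lower), *Dusp6* (17.1% lower), and *Spry2* (13.4% lower). On the same scale 1.79% of all genes tested lay lower in every *Adam17*-/- library and 83.6% lay higher. The sum rests on few genes, since *Lyz2*, *Itgam*, and *Csf1r* made up 85.9% to 89.1% of it in each library. Against a single marker, the number of members lower in every *Adam17*-/- library was 4 or 5 with *Adgre1*, *Csf1r*, *Itgam*, *Lyz2*, *Fcgr1*, or *Cd14*. It was 7 with *Mertk*, 1 with *Cd68* (*Dusp5*), and 0 with *Mrc1*. Members higher in every *Adam17*-/- library numbered 7 with *Mrc1*, 4 with *Cd68* or *Adgre1*, and 1 to 3 with the other markers. Both counts thus depend on the marker used, and the share of all genes was not determined for single markers. *Dusp6* had 8.32 and 9.24 CPM per 1000 CPM of markers in WT and 7.65, 6.87, and 7.32 in *Adam17*-/- libraries. *Spred2* and *Spred1* overlapped between the groups on this scale, and *Dusp1*, *Dusp2*, and *Dusp16* lay higher in all *Adam17*-/- libraries. The part of the markers in the members' differences was not tested.

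Of 19 related genes of these families, 14 were tested, and 1 of them (7.14%, against 31.7% of all genes that passed in either direction), *Dusp3*, passed as lower (234 ± 1.35 CPM in WT and 197 ± 9.16 CPM in *Adam17*-/- cocultures, log2 fold change -0.24, adjusted p = 0.0412). The *Dusp3* call was lost with upper quartile factors, library size only, the FPKM fits, no filter, the replicate block, and any *Adam17*-/- replicate left out, and the count of related genes passing was 0 to 3 over the alternatives. With library size only, the 3 that passed were *Dusp22*, *Phlda3*, and *Spred3*, all of them higher. The median of the 14 was 0.15. The members and the related genes were listed with earlier results of these data known. The contrast between them is therefore not independent of the data. Every *Adam17*-/- library lay over both WT libraries in *Dusp19* (0.62), *Phlda3* (0.49), *Dusp22* (0.28), and *Dusp28* (0.24). None of these passed (adjusted p = 0.150, 0.103, 0.0569, and 0.341), and the share of all genes with this pattern was not determined. *Dusp7*, which like *Dusp6* encodes a cytoplasmic ERK phosphatase, had 103 and 79.6 CPM in WT and 91.0, 82.7, and 93.9 CPM in *Adam17*-/- libraries (log2 fold change -0.03, adjusted p = 0.861). *Dusp10*, a phosphatase of p38 and JNK, had 4.71 to 5.08 CPM in WT and 4.21 to 5.19 CPM in *Adam17*-/- libraries. *Spry1* and *Spry3* were low, at 1.52 to 3.78 CPM, and did not pass, and *Spry4* had 0 to 7 counts and was not tested. *Spred3* had 30.4 and 25.4 CPM in WT and 32.3, 28.7, and 37.97 CPM in *Adam17*-/- libraries (log2 fold change 0.25, adjusted p = 0.187).

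**Figure D3:**
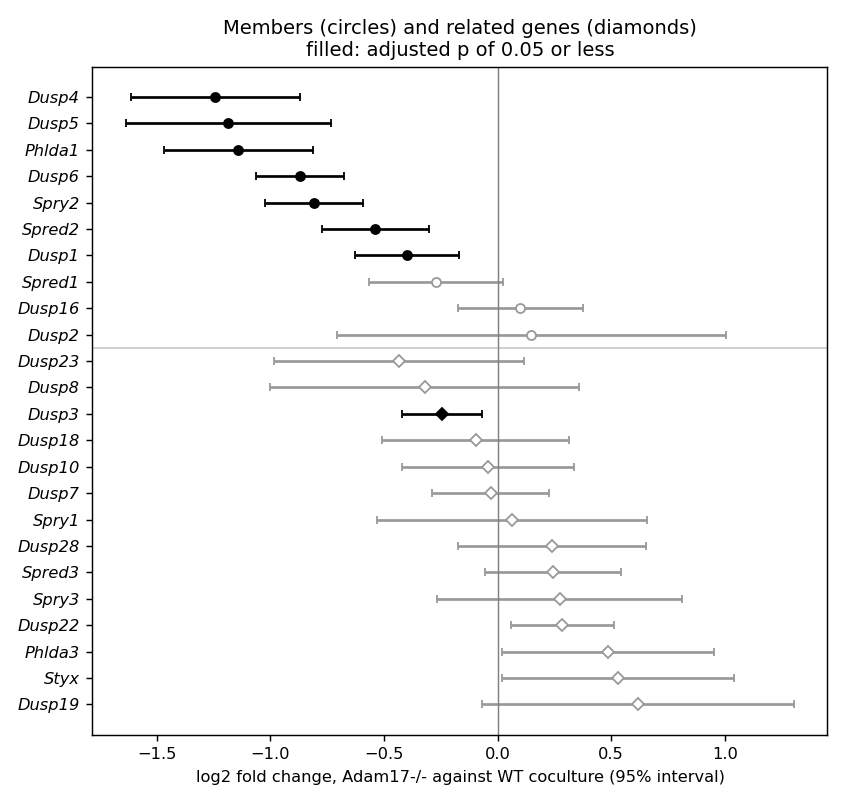
Log2 fold change of *Adam17*-/- against WT coculture (horizontal axis) with 95% intervals from edgeR for the 10 members (circles) and the 14 related genes tested (diamonds). Filled symbols passed an adjusted p of 0.05. The 7 filled circles run from -1.24 (*Dusp4*) to -0.40 (*Dusp1*), and 1 diamond (*Dusp3*, -0.24) is filled.

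Of 25 other brakes on Ras and ERK tested, 8 were lower and 1 was higher, with a median log2 fold change of -0.17. The 36.0% that passed was near the 31.7% of all genes, and the 9 became 4 with the replicate block, 6 or 7 with an *Adam17*-/- replicate left out, and 15 without WT replicate 2. *Dok2*, an adaptor that recruits Ras inactivators, was at 113 ± 16.6 CPM (SD) in WT and at 55.3 ± 3.87 CPM (SD) in *Adam17*-/- cocultures, a difference of -1.03 on the log2 scale (adjusted p = 0.000430). *Ptpn7*, a tyrosine phosphatase of ERK in leukocytes, was lower at -0.54 (adjusted p = 0.00148, with counts that were not whole). *Sh2b3* (-0.44) and *Dok1* (-0.43) followed. The 1 higher gene was *Rasa1*, a Ras inactivator named here as the exception, at 0.43 (adjusted p = 0.0176).

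*Mapk3*, which encodes ERK1, had 340 and 310 CPM in WT and 295, 291, and 282 CPM in *Adam17*-/- libraries. The groups were apart, but the test was not passed (log2 fold change -0.17, adjusted p = 0.139). Of 34 cascade genes tested, 9 were lower and 3 higher, with a median of -0.11, and the 35.3% that passed was near the 31.7% of all genes. The 12 became 8 with the replicate block, 7 without *Adam17*-/- replicate 1, and 19 without WT replicate 1. *Map3k8*, the kinase that links Toll-like receptors to MEK, rose from 19.1 ± 1.09 to 39.1 ± 3.65 CPM (log2 fold change 1.04, adjusted p = 0.000465), and *Braf* rose by 0.55 on the log2 scale (adjusted p = 0.00342). *Elk3*, which encodes an ETS partner of SRF, fell by 0.63 (adjusted p = 0.00121, counts not whole).

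Other transcripts known to follow ERK activity moved in both directions. Of 35 tested, 13 were lower and 6 higher, with a median of -0.20, against 16.8% lower and 14.9% higher over all genes. *Ccnd1*, which encodes cyclin D1, decreased from 113 ± 28.1 to 22.0 ± 5.77 CPM (log2 fold change -2.36, adjusted p = 0.000199), *Epha2*, an ephrin receptor, from 28.8 ± 5.26 to 6.49 ± 3.06 CPM (-2.13, adjusted p = 0.000924), and *Myc* from 59.5 ± 11.4 to 17.9 ± 4.71 CPM (-1.73, adjusted p = 0.000477). *Epha4* went the other way, from 2.43 ± 0.697 to 7.92 ± 0.975 CPM (1.71, adjusted p = 0.000811). *Etv5*, an ETS factor induced through ERK and chosen here after its values were seen, had 247 and 244 CPM in WT and 127, 121, and 138 CPM in *Adam17*-/- libraries (-0.94, adjusted p = 0.000271). Genes of the immediate early response, named here after their values were seen, were among those lower (*Nr4a1*, -1.04; *Ier2*, -0.79; *Jun*, -0.44), among those higher (*Nr4a3*, 1.499; *Atf3*, 0.47; *Btg2*, 0.45), and among those that did not pass (*Fos*, -0.16; *Egr1*, -0.58).

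**Figure D4:**
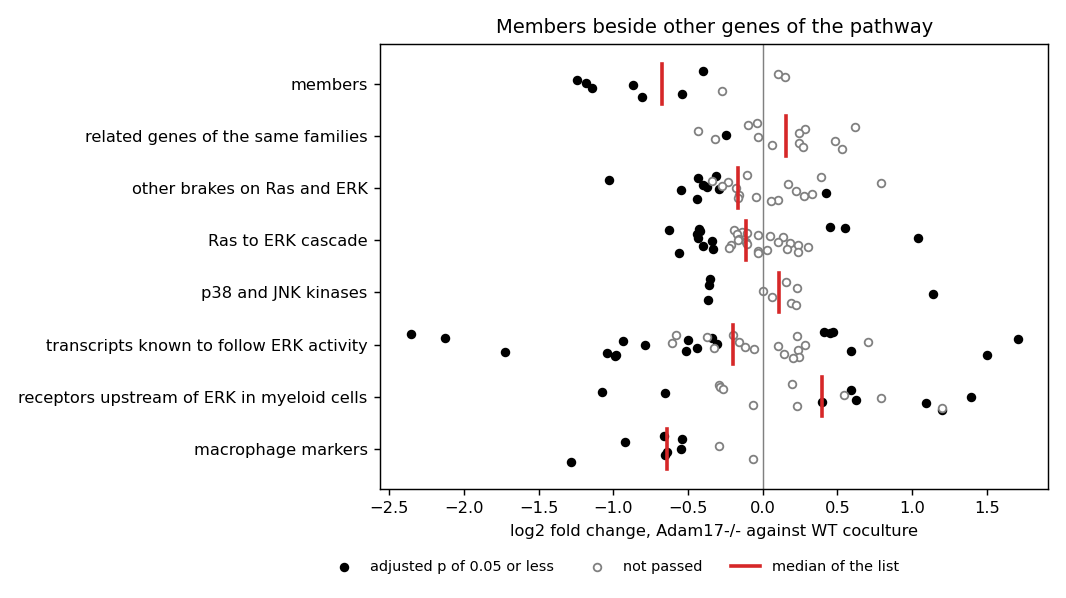
Log2 fold change of *Adam17*-/- against WT coculture (horizontal axis) for every tested gene of the members, 6 other lists of the pathway, and the macrophage markers. Filled points passed an adjusted p of 0.05 and red bars are list medians, which stand at -0.67 for the members, 0.15 for the related genes, and -0.64 for the macrophage markers.

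The direction of the 7 lower members held under all 13 alternative settings, and 6 of them (all but *Dusp1*) kept an adjusted p of 0.05 or less in each. Scaling by library size only moved the median of all genes to 0.16, and the members' median to -0.53. It also turned the split over all genes from 1869 higher and 2114 lower to 3019 higher and 1077 lower, and the FPKM fits gave 2927 and 1016 (pseudocount 0.1) or 2867 and 1011 (pseudocount 1).

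**Figure D5:**
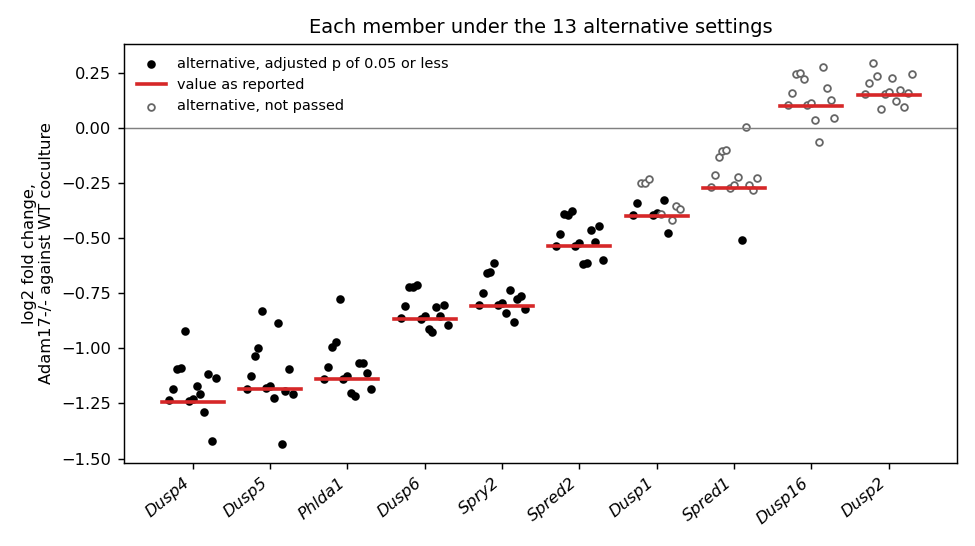
Log2 fold change (vertical axis) of each member as reported (red bar) and under 13 alternative settings (points, filled where the adjusted p was 0.05 or less). *Dusp4*, *Dusp5*, *Phlda1*, *Dusp6*, *Spry2*, and *Spred2* have filled points only, all under 0, while *Spred1* has 1 filled point, without WT replicate 1.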

How the data were processed

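BMDMs from 2 WT and 3 *Adam17*-/- 4T1 cocultures, as the labels name them, were profiled by RNA-Seq. The authors sequenced poly-A RNA on a BGISEQ-500, aligned reads to GRCm38 (mm10) with HISAT, and obtained expression levels with Bowtie2. The submitters' processing notes also name RSEM and DESeq2, and versions are not given in the sources used here. For each RefSeq transcript the authors deposited the expected count, without normalization, and FPKM, which adjusts it for length and depth. No transcript is listed under 0.01 FPKM, and absent ones were taken as 0. Between 48.3% and 49.3% of the expected counts per transcript were not whole (tolerance 0.001). Strand handling, and with it the treatment of overlapping genes, is not given in the sources used here.

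Counts and FPKM were summed per Entrez gene, and 17015 of 17058 identifiers matched a RefSeq symbol. Rounded counts were analyzed in R 4.3.3 by edgeR 4.0.16 (filterByExpr, TMM factors of 0.920 to 1.05, glmQLFit, and glmQLFTest) without covariates, and p-values were adjusted by the Benjamini-Hochberg method over 12576 genes. Standard errors were derived from the F statistic, and log2 fold changes are *Adam17*-/- minus WT. Nothing in the labels says that the replicates came from separate animals, so p-values measure the spread between these libraries, which may be technical. Intervals cover that spread and counting error. The alternatives were DESeq2 1.42.0, other scalings, limma 3.58.1 on log2(FPKM + 0.1) and log2(FPKM + 1), other filters, the replicate number as a block, and each replicate left out. The tests were checked on simulated counts. The members and the 6 pathway and 7 marker lists were chosen with earlier results of these data known. All members were named, and of each other pathway list up to 4 passing genes with the largest change, plus *Mapk3*, *Egfr*, *Csf1r*, and *Adam17*, while tested related genes could be named. A further gene that the rule names is not reported here. *Nf1*, *Rasa1*, *Etv5*, *Spry4* (not tested), the immediate early genes, and the cell type markers named were added after their values were seen. Promoters came from the RefSeq table of GRCm38.p6. Figures were drawn with matplotlib 3.10.9.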

Additional observations from a re-analysis of the deposited data

How the results depend on the processing

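The count of lower members, 7, was 6 to 8 over the 13 alternatives, and the count of higher members stayed 0. The count past an absolute log2 fold change of 1 was 1 with log2(FPKM + 0.1), 0 with log2(FPKM + 1), and 2 to 3 with a replicate left out. Among log2 fold changes, 120 of the 130 single values kept their direction and call. *Dusp16* reversed without WT replicate 1 (range with a replicate left out -0.062 to 0.28), and *Spred1* reversed without WT replicate 2 (range -0.51 to 0.0034). *Dusp5* ranged from -1.43 to -0.89 with a replicate left out. Scaling by library size only moved the median of all genes to 0.16, and the FPKM fits moved it to 0.15 and 0.11, with 8.04% to 8.56% of genes then lower and 6 members lower.

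The block by replicate number gave 6 lower members, without *Dusp1* (adjusted p = 0.0875). The numbers were not taken as a pairing: deviations of same-numbered libraries correlated at -0.12 and -0.05, and only 2 numbers are shared. With the block, the counts passing were 4 of the other brakes, 1 of the p38 and JNK kinases, and 4 of the receptors, against 9, 4, and 8 as reported, and over all genes the block left 1126 lower and 1216 higher against 2114 and 1869.

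The count of p38 and JNK kinases was 2 with library size only, and that of receptors 5 with log2(FPKM + 1). The 1 related gene became 2 with DESeq2 and with at least 10 counts in every sample, and 3 in the FPKM fits and with library size only. With a replicate left out, the counts were 0 to 3 related genes, 6 to 15 other brakes, 7 to 19 cascade genes, 1 to 5 p38 and JNK kinases, and 4 to 9 receptors. The lowest counts came without an *Adam17*-/- replicate, for the p38 and JNK kinases also without WT replicate 1, and 926, 1168, and 1237 genes were lower without *Adam17*-/- replicates 1, 2, and 3. The highest cascade count came without WT replicate 1, and the highest counts of the other 4 lists without WT replicate 2. The cause of these changes was not tested. Depth limits *Dusp2* most, at 10 to 13 counts a library.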

Other observations

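Of 10 p38, JNK, and related kinase genes tested, 3 were lower and 1 higher, with a list median of 0.11 (log2), where 31.7% of all genes passed in either direction. The 4 became 2 with library size only or without *Adam17*-/- replicate 2, and 1 with the replicate block, without WT replicate 1, and without *Adam17*-/- replicate 1 or 3. *Mapk13* (p38 delta), a low transcript, was at 1.62 ± 0.150 CPM (SD) in WT and at 3.58 ± 0.156 CPM (SD) in *Adam17*-/- cocultures, a rise of 1.14 on the log2 scale (adjusted p = 0.00432, edgeR). *Mapk7* (ERK5) was lower at -0.37 (adjusted p = 0.0394), *Map2k5*, which encodes its activating kinase, at -0.36 (adjusted p = 0.0266), and *Map2k3*, an activator of p38, at -0.35 (adjusted p = 0.0236).

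Of 17 receptors upstream of the members tested, 6 were higher, 2 were lower, and 9 did not pass, where 31.7% of all genes passed in either direction. The 8 that passed became 4 with the replicate block and 4 to 5 with an *Adam17*-/- replicate left out. *Egfr*, the receptor of HB-EGF and amphiregulin, was expressed at 6.49 and 5.90 CPM in WT and 3.12, 2.83, and 2.86 CPM in *Adam17*-/- libraries, or -1.07 ± 0.167 on the log2 scale (standard error, adjusted p = 0.00185). *Csf1r*, the receptor that maintains macrophages, lay lower in all *Adam17*-/- libraries without passing (-0.29, adjusted p = 0.0520). *Flt1* (1.40), *Pdgfrb* (1.198), and *Kit* (1.10) were higher from levels of 0.771, 6.71, and 0.872 CPM. *Adam17* itself, intact in the macrophages, had 198 and 200 CPM in WT and 152, 164, and 161 CPM in *Adam17*-/- cocultures (-0.32, adjusted p = 0.0129), which does not check the labels, since the deletion was made in the cancer cells.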
